A study of Arabidopsis thaliana with 20 samples.

Results

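*HTR4* (AT4G40030), *HTR5* (AT4G40040) and *HTR8* (AT5G10980) are the genes of *Arabidopsis thaliana* that encode histone H3.3, and they are the genes altered in the H3.3 knockdown line *h3.3kd*. They were taken by their gene identifiers, 3 of 26205 counted genes, which are the protein-coding ones with a length of 500 bp or more. Reads of 5 antibodies were compared between *h3.3kd* and WT over their promoters (500 bp before the start site) and over a 5′ part and a 3′ part, made by cutting each gene in its middle. The question was how much of any difference lay in the number of reads of every antibody, as an insertion or an extra copy of a sequence would change it, and how much lay in a mark relative to H3.

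Histone H3.3 is the H3 variant that is put into chromatin outside of DNA replication, at transcribed genes, while H3.1 is put in behind the replication fork. H3K4me3 marks the start of active genes, H3K36me3 their transcribed body, and H2A.Z is an H2A variant found mainly at the first nucleosomes of genes. In the WT libraries used here H3K36me3 lay more toward the 5′ side. Its median log2 value over H3 among 25875 genes was 0.43 in 5′ parts and -0.05 in 3′ parts. H1 is the linker histone that binds the DNA between nucleosomes.

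Chromatin immunoprecipitation and sequencing was done on *h3.3kd* and WT (Col-0) seedlings 10 days old with antibodies against H3, H3K4me3, H3K36me3, H2A.Z and H1, in 2 replicates of each genotype and antibody, 20 libraries in all. The *h3.3kd* plants are homozygous for T-DNA insertions in *HTR4* (*htr4-2*) and *HTR8* (*htr8-2*) and carry a transgene in which the *HTR5* promoter drives an artificial microRNA against the *HTR5* transcript. WT carries none of these. Which of the *h3.3kd* lines was profiled, and hence which of the 2 artificial microRNAs it carries, is not named for these libraries. The transgene holds *HTR5* upstream sequence, so its reads and those of the resident gene map to the same place and cannot be told apart by position. Read number is given as RPM, reads in a window per 1000000 reads of the library. Libraries held 10829576 to 68090065 reads in *h3.3kd* and 8688846 to 53927583 in WT. The replicate 2 lists of H2A.Z and H3K4me3, 4 libraries over the 2 genotypes, came in another format, without strand and with up to 2 reads per position. The seedlings were used whole, so fewer cells with a mark and less of the mark per cell cannot be told apart.

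All 3 genes lie on the minus strand of TAIR10.1. *HTR4* (chr4:18555532-18557106, 1575 bp, 4 exons) follows *HTR5* (chr4:18557149-18558945, 1797 bp, 5 exons) with 42 bp between them, so the *HTR4* promoter window lies in the 3′ end of *HTR5*. On its start side *HTR5* has AT4G40042 at 151 bp, so most of the *HTR5* promoter window lies in that gene. *HTR8* (chr5:3472405-3473570, 1166 bp, 3 exons) stands alone, 3249 bp from the next gene on its start side. The coding sequences of *HTR4* and *HTR5* differed at 46 of 411 bases, those of *HTR4* and *HTR8* at 88 and those of *HTR5* and *HTR8* at 83, and the 136 encoded residues did not differ between any pair. The bases at which the reads of *h3.3kd* changed are shown here from the RefSeq sequence of TAIR10.1, 5′ to 3′ on the strand of the gene, since every result on read number below is placed by them. Capitals mark the bases shared by all reads missing from *h3.3kd* in *HTR4*, the bases under no *h3.3kd* read in *HTR8*, and the start codon of *HTR5*. The *HTR4* bases lie in exon 4, the first *HTR8* edge in an intron and the second in exon 2, and the *HTR5* start codon in exon 2.
*HTR4* break, chr4:18555952-18555981: cttagctctccagGAAGCtgcagaagcata
*HTR8* first edge, chr5:3473027-3473056: gtattcgattgcgtcTCTAACGAATTCTTC
*HTR8* second edge, chr5:3472981-3473010: AAATCAGCACCAACCaccggaggagtcaag
*HTR5* start codon, chr4:18558222-18558251: taatttgttgaacagATGgctcgtactaag

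An artificial microRNA is a designed sequence of 21 bases placed in a natural precursor in place of its own microRNA, and it lowers transcripts to which it pairs. The sequences below, in DNA letters, are those in the cloning primers of the study. Each is followed by the stretch of each member gene closest to its exact complement, with the bases that differ from that complement in capitals. A G opposite a U (T here), which can pair in RNA, was counted as differing. They are shown because only 1 of the 3 genes was meant to be reached by them. Differing from the exact complement were 1, 8 and 9 bases in *HTR5*, *HTR4* and *HTR8* for amiR-HTR5-I and 2, 5 and 8 bases for amiR-HTR5-II. The *HTR5* match of amiR-HTR5-I is in the 3′ UTR in exon 5 (chr4:18557484-18557504) and that of amiR-HTR5-II in coding sequence of exon 2 (chr4:18558197-18558217). The matches in *HTR4* lie in the 5′ UTR (chr4:18557083-18557103) and in coding sequence of exon 2 (chr4:18556378-18556398), and those in *HTR8* in an intron (chr5:3473158-3473178) and in coding sequence of exon 1 (chr5:3473310-3473330).
amiR-HTR5-I: tatctatttagaaaaccgccc
*HTR5* match of amiR-HTR5-I: gggTggttttctaaatagata
*HTR4* match of amiR-HTR5-I: gggcTgtGttGAGaaAaCaCa
*HTR8* match of amiR-HTR5-I: TCTAggttttctaTatTgTGT
amiR-HTR5-II: ttccagtagacttacgcgctg
*HTR5* match of amiR-HTR5-II: cagcTcgtaagtctactggaG
*HTR4* match of amiR-HTR5-II: cCgcTcgtaagtcCacCggaG
*HTR8* match of amiR-HTR5-II: cCgcTAgGaaAtcCacCggaG

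The 2 genes with insertions each had a short stretch with no reads in *h3.3kd*. In *HTR4* no *h3.3kd* library had a read whose leftmost base lay at chr4:18555919-18555964, a run of 46 positions in the coding part of exon 4. The WT libraries had 5 and 4 such reads for H3, 19 and 80 for H3K4me3, 23 and 22 for H3K36me3, 9 and 57 for H2A.Z and 6 and 13 for H1. Every one of those reads covers the 5 bases chr4:18555964-18555968, and the *h3.3kd* libraries still had reads on either side of them, so no base of *HTR4* was without *h3.3kd* reads. In *HTR8* the run without *h3.3kd* reads was 95 positions, chr5:3472947-3473041, from exon 2 into the intron before it. There the WT libraries had 17 and 15 reads for H3, 70 and 171 for H3K4me3, 62 and 53 for H3K36me3, 23 and 60 for H2A.Z and 12 and 16 for H1. In *HTR8* 46 bases, chr5:3472996-3473041, lay under no *h3.3kd* read. Set against a floor of 3 counts over the 10 libraries, the reads of *h3.3kd* over the runs were at least 80.2-fold lower in *HTR4* and at least 168-fold lower in *HTR8*. The runs were found from the reads, so these values are a description and were given no test. *HTR5* had no run longer than 1 position in *h3.3kd*, and none of the 3 genes had one longer than 3 positions in WT.

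Apart from these runs none of the 3 windows of either gene passed limma's test for a difference in read number. For *HTR8*, the 5′ part, which holds most of the run, was at -0.44 ± 0.16 (log2 of *h3.3kd* over WT in RPM, SE, n = 10 libraries each, adjusted p = 0.651), and at -0.20 when the run was left out of the window. The 3′ part of *HTR8* was at -0.20 ± 0.19 (adjusted p = 0.757) and at -0.07 without the run. The part of *HTR8* before the run was at -0.20 and the part after it at -0.07. In *HTR4* the difference was spread further: the 5′ part, which the run does not touch, was at -0.33 ± 0.17 (adjusted p = 0.651), the 3′ part at -0.48 ± 0.17 (adjusted p = 0.356), and the 3′ part without the run at -0.39. Over all of *HTR4*, *h3.3kd* libraries had 4.88 to 34.7 RPM (median 15.4) and WT libraries 7.16 to 37.8 (median 20.02). The groups overlapped, *h3.3kd* was higher in 1 of the 10 pairs of libraries with the same antibody and replicate number, and the mean difference was -0.41 (exact two-sided permutation test with labels permuted within antibodies, p = 0.0669). Over all of *HTR8* the ranges were 6.62 to 22.6 (median 10.6) in *h3.3kd* and 4.17 to 27.6 (median 13.9) in WT, with a mean difference of -0.25 (exact permutation p = 0.224, higher in 3 of 10 pairs). The 1 kb upstream of *HTR8*, a window added after the data had been seen, differed by -0.25 (exact permutation p = 0.0221, higher in 0 of 10 pairs), with the median of all promoters at -0.18.

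*HTR5*, which has no insertion, had more reads in *h3.3kd* upstream of its coding sequence with every antibody. Over the 1 kb before the start site, H3 libraries of *h3.3kd* had 14.3 and 16.9 RPM, against 7.80 and 10.5 in WT. For H3K4me3 the values were 30.7 and 29.3 in *h3.3kd* and 15.8 and 21.97 in WT, and for H3K36me3 28.5 and 25.1 in *h3.3kd* and 14.1 and 19.98 in WT. For H2A.Z they were 20.1 and 17.8 in *h3.3kd* and 10.9 and 11.9 in WT, and for H1 10.097 and 10.6 in *h3.3kd* and 5.56 and 8.25 in WT. Both *h3.3kd* libraries lay above both WT libraries with each antibody, and the differences between pairs of libraries ran from 0.33 to 1.01 on the log2 scale. The mean rise was 0.69, with an exact two-sided permutation p of 0.000257, the smallest these libraries can give. The labels do not say whether libraries of 1 genotype and replicate number share chromatin. If they do, only 2 of the 10 libraries of a genotype are independent, and the permutation p-values given here are too small. Reads at the same coordinates had been removed from the lists, which limits how high a count can go: the fullest *h3.3kd* library had reads at 87.2% of the positions and strands of this window, and the fullest WT library at 59.25%.

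The extra reads of *HTR5* formed a block with 2 edges. A scan for 1 stretch with another share of *h3.3kd* reads than its surroundings, from the 3′ end of *HTR5* to 4 kb upstream of it, placed the block at chr4:18558234-18560717, 2484 bp by leftmost base. Within 2 log-likelihood units the edges lay at 18558217 to 18558238 and at 18560709 to 18560726. The first range holds the first base of the *HTR5* start codon, 18558236, and the second edge lies 1772 bp upstream of the start site of *HTR5*, at the upstream end of AT4G40045. Inside the block there were 13809 reads in *h3.3kd* libraries and 8861 in WT libraries, a log2 difference of 0.63 in RPM, higher in 10 of 10 pairs (0.36 to 1.14). In the rest of the scanned region there were 10989 reads in *h3.3kd* and 10455 in WT, a difference of 0.06, higher in 7 of 10 pairs (-0.44 to 0.54). The scan used the same reads as these values, which are a description.

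**Figure D1:**
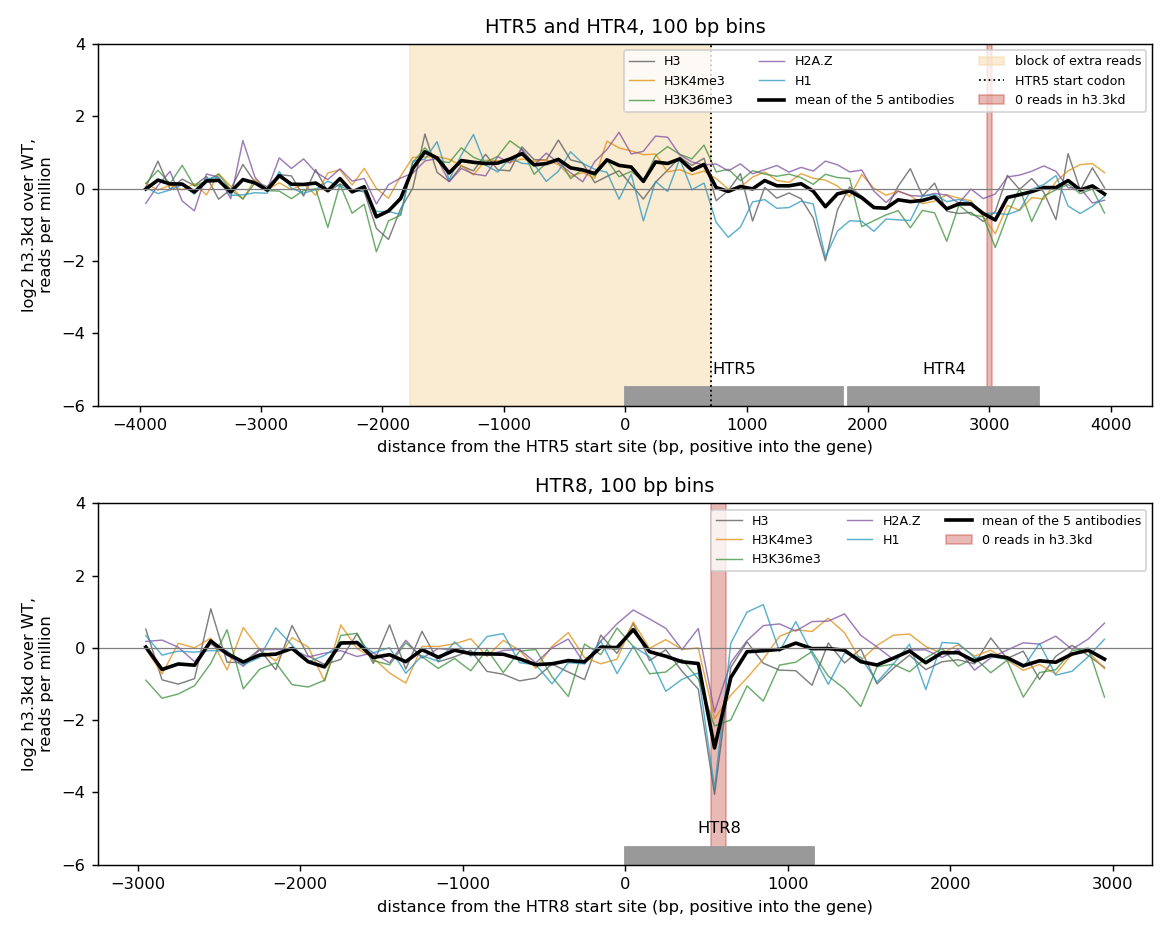
Read number in *h3.3kd* over WT in bins of 100 bp around *HTR5* and *HTR4* (top) and *HTR8* (bottom). The vertical axis is the log2 of *h3.3kd* over WT in RPM, the horizontal axis the distance from the start site in bp, thin lines are the 5 antibodies (means of 2 libraries per genotype) and the thick line is their mean; grey bars are genes. In the shaded block of 2484 bp that ends at the dotted start codon the mean of the 5 antibodies lies above 0 in every bin centred inside it (0.20 to 1.02), with single antibodies at or under 0 in a few bins (H1 at -0.89 in the lowest), and at the red runs of 46 and 95 positions *h3.3kd* had no reads.

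The edge at the start codon was also measured within each library, where its depth cancels out. The part of *HTR5* from the start codon on is 1088 bp long and holds the 411 coding bases, introns and the 3′ UTR. The log2 of read density before over from the start codon was 0.26 and 0.35 in *h3.3kd* H3 libraries and -1.10 and -0.31 in WT. For H3K4me3 it was 0.73 and 0.05 in *h3.3kd* and 0.04 and -0.04 in WT. It was 0.41 and 0.37 in *h3.3kd* H3K36me3 libraries and -0.37 and -0.03 in WT. For H2A.Z it was 0.10 and -0.14 in *h3.3kd* and -0.37 and -0.45 in WT, and for H1 0.54 and 0.33 in *h3.3kd* and -0.67 and -0.46 in WT. The mean was 0.30 in *h3.3kd* and -0.38 in WT, and the 2 genotypes did not overlap with any antibody. On the RPM scale the part before the start codon was 0.74 higher in *h3.3kd* on the log2 scale, in 9 of 10 pairs (-0.16 to 1.51), and the part from it on 0.08 higher, in 6 of 10 pairs (-0.95 to 1.06). From 2 to 4 kb upstream the difference was 0.10. These windows were chosen after the block had been seen. Their exact permutation p-values, 0.000257 for the ratio, 0.0111 before the start codon, 0.766 from it on and 0.214 upstream, are therefore not independent of that choice.

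**Figure D2:**
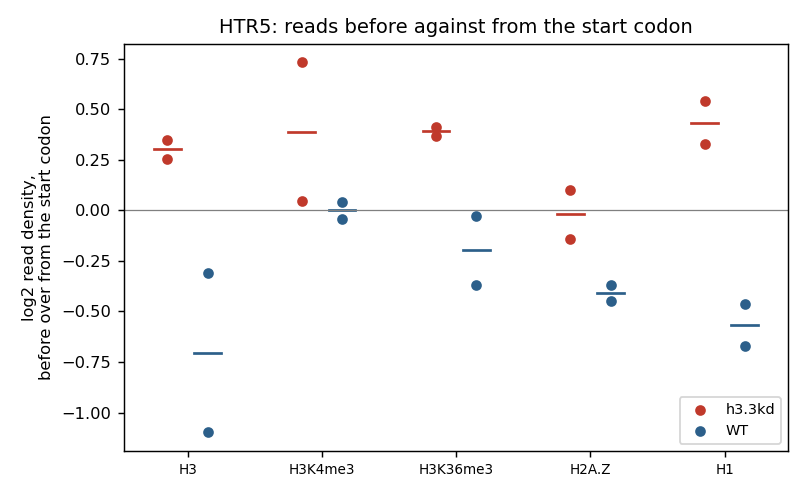
Log2 of the read density of *HTR5* before its start codon over that from the start codon on, for each library (dots; *h3.3kd* left, WT right) and their means (bars), by antibody. With each antibody both *h3.3kd* libraries lie above both WT libraries, with means over all libraries of 0.30 in *h3.3kd* and -0.38 in WT.

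The precursor gene that such microRNAs are built from, MIR319a (AT4G23713, chr4:12352956-12353131, 176 bp), had a second block. Its H3 libraries had 3.09 and 2.67 RPM in *h3.3kd* and 1.40 and 1.38 in WT, and its H3K36me3 libraries 3.42 and 3.58 in *h3.3kd* and 1.25 and 1.21 in WT. The mean rise over the 5 antibodies was 0.89, in 10 of 10 pairs (exact two-sided permutation p = 0.000257, the smallest possible here). The same scan gave edges at chr4:12352868-12353228, 361 bp, with 1910 reads in *h3.3kd* and 1049 in WT. Reads that cover the mature microRNA at chr4:12353109-12353129 numbered 224 in *h3.3kd* and 185 in WT, a log2 difference of 0.26 in RPM, higher in 7 of 10 pairs. The other reads of the block numbered 1686 in *h3.3kd* and 864 in WT, a difference of 0.95, higher in 10 of 10 pairs. The pairs over the mature microRNA ran from -1.59 to 0.98 and overlapped with those of the other reads, 0.11 to 1.86. This split, too, was made after the reads had been seen, and the source of the extra reads was not tested.

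Set against all genes, the members stood at both ends of the range of read number, and 0 of their 9 windows passed limma's test with Benjamini-Hochberg adjustment at 0.05. The share of windows called among all genes was 0% for promoters, 0.00385% for 5′ parts and 0.00769% for 3′ parts, while 4617, 1955 and 2676 windows were under 0.05 without adjustment. The *HTR5* promoter was at 0.56 ± 0.11 (log2, SE, adjusted p = 0.11), rank 2 from the highest of 25967, and the *HTR5* 5′ part at 0.57 ± 0.18 (adjusted p = 0.651), rank 4 of 25990. The *HTR5* 3′ part was at 0.09 ± 0.19 (adjusted p = 0.913). The median over all promoters was itself -0.18, so the *HTR5* promoter lay well above the middle of the genome, and the *HTR8* promoter, at -0.25 ± 0.14, lay near that median. The *HTR4* 3′ part, at -0.48, was rank 25972 of 26000, and the *HTR8* 5′ part, at -0.44, rank 25937 of 25990. The promoter of *HTR4*, in the part of *HTR5* outside the block, was at -0.01 ± 0.16 (adjusted p = 0.972).

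The call for the *HTR5* promoter turned on the window, the tool, the scaling and the treatment of replicates. With promoters of 1000 bp *HTR5* was at 0.69 (adjusted p = 0.000135) and was the single window called of 26017, 0.00384%, and limma-voom on the 500 bp windows called it at 0.60 (adjusted p = 0.0237), with 1, 1 and 2 windows called in the 3 parts. It was also called with median ratio scaling (0.74, adjusted p = 0.0237) and with a replicate block (0.56, adjusted p = 0.0021). With the 5 antibodies of a genotype and replicate number averaged into 1 value, 2 against 2, it was at 0.56 with an adjusted p of 0.855. Without the WT replicate 2 libraries it was at 0.84 (adjusted p = 3.35e-05), and without the WT replicate 1 libraries at 0.29, not called. The 3 windows of other genes called by limma were both parts of AT4G40045 (0.78 and 0.76), which lies in the block upstream of *HTR5*, and the 3′ part of AT5G03710 (-1.18). They are named because they were so few, after their values were seen.

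**Figure D3:**
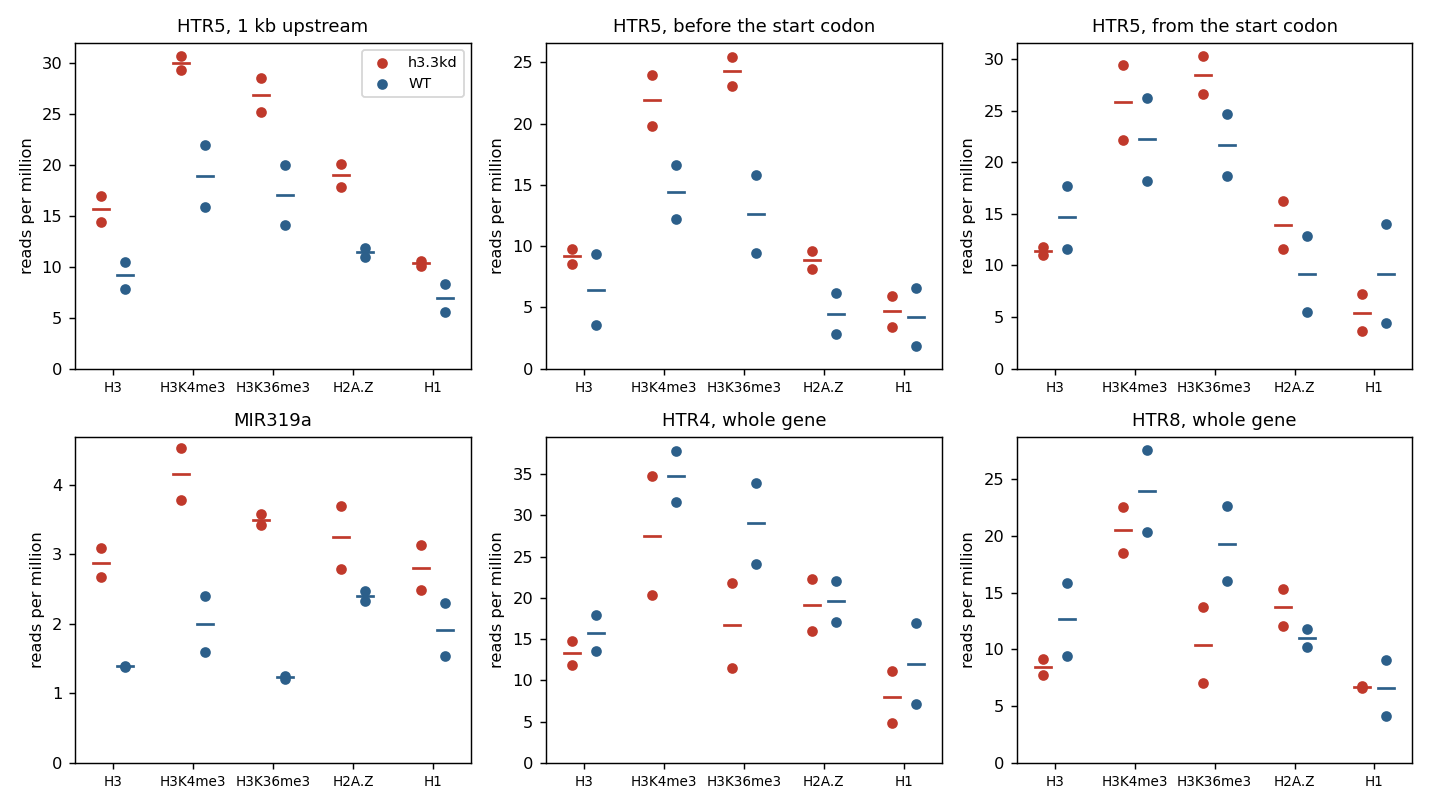
RPM of each library (dots; *h3.3kd* left, WT right) with the mean of 2 libraries (bars), by antibody, in 6 windows. In the 1 kb upstream of *HTR5*, at 10.097 to 30.7 RPM in *h3.3kd* and 5.56 to 21.97 in WT, the genotypes do not overlap within an antibody, with *h3.3kd* higher. Over all of *HTR4* they do not overlap for H3K36me3 (*h3.3kd* lower), and over all of *HTR8* for H3 and H3K36me3 (*h3.3kd* lower) and H2A.Z (*h3.3kd* higher). For reads not divided by H3 the share of all genes without overlap was not counted.

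Tiles of 250 bp showed the same borders without the gene annotation. Of 454931 tiles 6 were called, 0.00132%, with 48428 under 0.05 before adjustment. All 3 called higher belong to the blocks: chr4:12353001-12353250 at MIR319a (0.88, adjusted p = 0.00496), chr4:18559751-18560000 (0.85, adjusted p = 0.00496) and chr4:18560501-18560750 (0.81, adjusted p = 0.00861), both in AT4G40045. The 3 called lower, each with under 50 reads on average and outside the rule for naming, lay at AT5G03710 and AT5G03720 (-3.38), in AT1G63080 (-3.04) and between genes at chr3:14192001-14192250 (-1.71). At the inner border the tile chr4:18558001-18558250 was at 0.05 and the next one, chr4:18558251-18558500, at 0.70. At the outer border the tile beyond chr4:18560750 was at -0.45 (adjusted p = 0.454). The *HTR8* tiles on either side of chr5:3473000 were at -0.66 and -0.75, and the *HTR4* tile chr4:18555751-18556000 at -0.68, none of them called.

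Over the *HTR5* promoter the values of the marks over H3 lay close together in the 2 genotypes, while the reads of every antibody were higher in *h3.3kd*. There H3 itself was at 2.65 and 2.82 (log2 RPM) in *h3.3kd* and 1.83 and 2.46 in WT, a difference of 0.59, and H3K4me3, H3K36me3, H2A.Z and H1 differed by 0.60, 0.47, 0.61 and 0.55 before division by H3. Over H3 the differences were 0.01 for H3K4me3, -0.12 for H3K36me3, 0.03 for H2A.Z and -0.03 for H1, each from 2 libraries per genotype. The median over all promoters moved the other way for H3, at -0.32, and was 0.31 for H3K4me3 and 0.32 for H2A.Z over H3, so the *HTR5* promoter was at or below the middle of the genome in these ratios. With library sizes set by the median ratio of all promoters, which takes out those shifts, the differences were -0.31 for H3K4me3 and -0.29 for H2A.Z. Duplicate removal limited these counts unequally. In replicate 2, H3K4me3 reads filled 83.9% of the positions and strands of the window in *h3.3kd* and 60.5% in WT. H2A.Z reads filled 61.2% and 30.6%, and H3 reads 4.7% to 10.7% over its libraries. The ratios given in this paragraph are not corrected for that limit.

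Of the 36 values of a mark over H3 at the members (4 marks, 3 genes, 3 parts), limma called 0 at an adjusted p of 0.05, and 13 were under 0.05 before adjustment. The lowest adjusted p was 0.292. Among all genes H2A.Z and H1 had 0% of windows called in every part, H3K4me3 had 0.0347% in promoters, 0.00385% in 5′ parts and 0.0462% in 3′ parts, and H3K36me3 0.0154%, 0.0115% and 0.123%. Limma-voom called none of the 36. In 20 of the 36 both *h3.3kd* libraries lay beyond both WT libraries on the same side, where over all windows 29.5% of H3K4me3, 28.8% of H3K36me3, 39% of H2A.Z and 27.9% of H1 values did. With 2 libraries against 2 an exact permutation test cannot go below a p of 0.333, and the 4 ratios of a genotype and replicate share their H3 library. Most of the *HTR4* promoter window also lies inside the 3′ part of *HTR5*. These windows thus share reads, and every count of member windows here takes them as separate. The differences that follow are therefore descriptions.

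H2A.Z over H3 was higher in *h3.3kd* without overlap in 7 of the 9 member windows and lower in 0, where over all windows of the 3 parts 39% did not overlap in either direction. The largest difference was in the *HTR4* promoter window, that is the 3′ end of *HTR5*, with 0.49 and 1.04 in *h3.3kd* and -0.65 and -0.44 in WT. Most of that window also lies in the 3′ part of *HTR5*, so its reads are counted in both. In the 3′ part of *HTR5* H2A.Z over H3 was 0.16 and 0.57 in *h3.3kd* and -0.94 and -0.46 in WT. In that window the read number, 0.09 over the 5 antibodies, was itself a mean of values of both signs: -0.36 for H3, 0.26 for H3K4me3, 0.36 for H3K36me3, 0.70 for H2A.Z and -0.53 for H1. H2A.Z over H3 differed by 1.06 in that 3′ part. With the whole gene cut at the start codon instead, H2A.Z over H3 differed by 1.03 from the start codon on and by 0.42 before it. In the 5′ part of *HTR5*, most of which lies in the block, H2A.Z over H3 was -0.12 and 0.01 in *h3.3kd* and -0.73 and -0.55 in WT. *HTR8* had 0.62 and 0.64 in *h3.3kd* against 0.14 and 0.15 in WT in its promoter. In its 5′ part it had 0.14 and 0.84 in *h3.3kd* against -0.03 and -0.66 in WT, and in its 3′ part 0.93 and 0.67 in *h3.3kd* against 0.22 and -0.26 in WT. *HTR4* differed by -0.17 in its 5′ part, with overlap, and by 0.45 in its 3′ part, without. Over all genes 30.4% of promoters, 5.59% of 5′ parts and 24.7% of 3′ parts were higher without overlap, and the medians were 0.32, -0.16 and 0.06. Part of the H2A.Z ratio comes from H3. Without division by H3 the *HTR5* 3′ part differed by 0.70, its 5′ part by 0.98 and the *HTR4* promoter window by 0.72. The *HTR8* 3′ part differed by 0.38, its 5′ part by 0.17, its promoter by 0.10 and the *HTR4* 3′ part by -0.002. Of these windows only the *HTR5* 5′ part and the *HTR8* 3′ part did not overlap before division by H3. The share of all windows without overlap before that division was not counted. Leaving out the WT replicate 1 libraries moved H2A.Z over H3 in the *HTR8* 3′ part to 1.06. Leaving out WT replicate 2 moved it in the *HTR5* 3′ part to 1.30. Each of these values rests on a single WT library of H2A.Z.

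H3K36me3 over H3 passed the test in no member window, and whether the genes with an insertion differed from *HTR5* was not tested. It was lower in *h3.3kd* without overlap in the 5′ part of *HTR4*, at 0.06 and 0.63 in *h3.3kd* against 1.30 and 1.10 in WT. In the 3′ part of *HTR4* it was -0.15 and 0.49 in *h3.3kd* against 0.50 and 0.74 in WT. In the 3′ part of *HTR8* it was -0.77 and 0.11 in *h3.3kd* against 0.61 and 0.20 in WT. This value had the lowest adjusted p of the 36, 0.292. The 5′ part of *HTR8* overlapped, at 0.40 and 1.12 in *h3.3kd* against 0.88 and 0.83 in WT, and its promoter differed by 0.01. In *HTR5* it was higher in *h3.3kd* in both parts, with 1.54 and 1.39 against 1.16 and 0.87 in WT in the 5′ part, and 1.05 and 1.32 against 0.66 and 0.28 in WT in the 3′ part. The *HTR4* promoter window, at the end of *HTR5*, also was higher, by 0.89, and shares most of its positions with the 3′ part of *HTR5*. In all 7 of the 9 windows did not overlap, 3 higher and 4 lower, and the fourth lower one was the *HTR5* promoter at -0.12. Among all genes 7430 of 25987 3′ parts were lower without overlap and 1944 higher, with a median of -0.17. Of 25975 5′ parts 3769 were lower without overlap and 2436 higher, with a median of -0.03. Of 25940 promoters 3263 were lower and 3629 higher. Past the run without reads, in the last part of *HTR4*, H3K36me3 over H3 was -0.67 and -0.10 in *h3.3kd* and 0.20 and 0.79 in WT, a difference of -0.88 with an adjusted p of 0.0648. Before the run it differed by -0.51. The last part of *HTR8* differed by -0.67 and the part before its run by -0.11. These cuts at the runs were added after the data had been seen.

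H3K4me3 over H3 was higher without overlap in 4 of 9 windows and lower in 0, against 29.5% of all windows in either direction. Among all genes 6778 of 25965 promoters were higher without overlap and 967 lower, with a median of 0.31. The *HTR8* promoter, at 0.24, was under that median, and the *HTR4* promoter, at 0.85, above it. Of 5′ parts 2994 of 25987 were higher without overlap and 4548 lower, and of 3′ parts 3602 of 25999 and 4077. The windows higher without overlap at the members are listed next. These windows were the promoters of *HTR4* (0.52 and 1.32 in *h3.3kd*, 0.13 and 0.01 in WT) and *HTR8* (-0.23 and 0.11 in *h3.3kd*, -0.26 and -0.34 in WT), the 5′ part of *HTR8* (1.62 and 1.68 in *h3.3kd*, 1.24 and 0.99 in WT) and the 3′ part of *HTR5* (0.85 and 1.36 in *h3.3kd*, 0.57 and 0.42 in WT). Past the run, in the last part of *HTR4*, it differed by -0.70, and before the run by 0.00. H1 over H3 did not overlap in 2 of 9 windows, against 27.9% of all. In the 3′ part of *HTR8* H1 was 0.32 and -0.16 in *h3.3kd* and -0.97 and -0.86 in WT, rank 6 from the highest of 26001, and in the 5′ part of *HTR4* -1.34 and -0.48 in *h3.3kd* and -0.39 and 0.03 in WT. H3 itself, in RPM, did not pass the test in any member window, where 0% of windows of all genes did in each part (404, 865 and 779 windows under 0.05 before adjustment). H3 was higher without overlap in the *HTR5* promoter. It was lower without overlap in the promoter window of *HTR4* (1.91 and 1.88 in *h3.3kd*, 2.01 and 2.97 in WT, on the log2 scale), the 3′ part of *HTR4* (2.62 and 3.02 in *h3.3kd*, 3.21 and 3.34 in WT) and the 5′ part of *HTR8* (1.81 and 1.83 in *h3.3kd*, 2.19 and 2.78 in WT). In this order the differences were 0.59, -0.59, -0.45 and -0.67. The medians over all genes were -0.32 for promoters, 0.11 for 5′ parts and 0.07 for 3′ parts. For H3 the share of all windows without overlap was not counted.

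**Figure D4:**
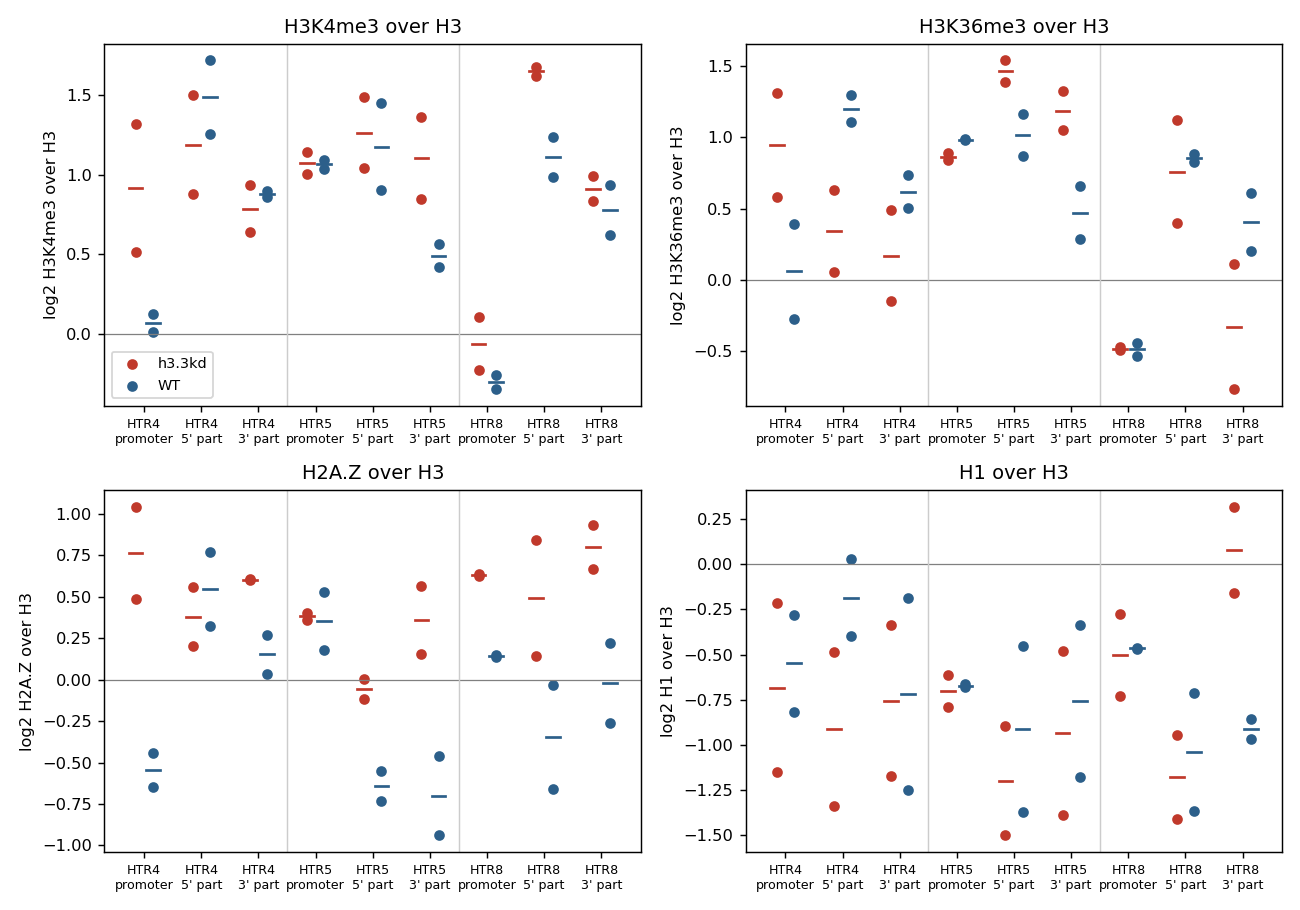
Log2 of H3K4me3, H3K36me3, H2A.Z and H1 over H3 in the promoter and in the 5′ and 3′ parts of *HTR4*, *HTR5* and *HTR8*, for each replicate (dots; *h3.3kd* left, WT right) with the mean (bars). H2A.Z over H3 lies higher in *h3.3kd* without overlap in 7 of 9 windows, and H3K36me3 lies lower in both parts of *HTR4* and in the 3′ part of *HTR8* and higher in both parts of *HTR5*.

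In WT the 3 genes had high H3K4me3 over H3 in both parts, and high H3K36me3 and little H1 over H3 in their 3′ parts. As a percentile among 25875 genes, H3K4me3 over H3 in the 5′ part stood at 99.7 for *HTR4*, 91.0 for *HTR5* and 86.4 for *HTR8*, and in the 3′ part at 97.2, 89.9 and 95.9. H3K36me3 in the 3′ part stood at 92.9, 85.7 and 81.6 for the same genes. In the 5′ part H3K36me3 stood at 92.4, 74.2 and 62.8. H1 over H3 was low in the 3′ part of all of them, at percentiles 2.11, 1.79 and 0.87 for *HTR4*, *HTR5* and *HTR8*. In the 5′ part H1 was low for *HTR5* (1.71) and *HTR8* (0.684), and not for *HTR4* (40.3). H2A.Z in the 5′ part was low for *HTR5* (5.53) and *HTR8* (11.7) and near the middle for *HTR4* (53.9). The *HTR5* promoter, with H3K4me3 at percentile 95.3 and H3K36me3 at 95.4, stood above those of *HTR4* (83.2 and 81.7) and *HTR8* (66.2 and 47.5). Most of that *HTR5* window lies in the neighbouring gene AT4G40042, and the *HTR4* window in *HTR5*, so these are not levels of promoters alone. The order in the 5′ part was taken from means of 2 WT libraries, and their values overlapped for H3K4me3 between *HTR4* (1.72 and 1.26) and *HTR5* (1.45 and 0.91) and between *HTR5* and *HTR8* (1.24 and 0.99).

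The members were not each other's nearest genes in WT. Over 12 values (4 marks in 3 parts, means of the WT libraries), *HTR4* and *HTR8* were at a Euclidean distance of 1.68, *HTR5* and *HTR8* at 2.20 and *HTR4* and *HTR5* at 2.38, on the log2 scale. The median distance of all genes was 2.63 from *HTR4*, 3.43 from *HTR5* and 2.65 from *HTR8*. Nearest to *HTR4* were AT2G35470 (0.75), AT3G08600 (0.81) and *PRA7* (0.85). Nearest to *HTR5* were AT3G02080 (0.74), *ATI1* (0.77) and AT1G10590 (0.83). Nearest to *HTR8* were *HAM1* (0.68), a regulator of the shoot meristem, *PSAK* (0.71), a subunit of photosystem I, and AT4G16490 (0.77).

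The other genes of histone H3 and of H3.3 deposition gave no called window. Over the 6 fits (read number, H3 and the 4 marks over H3) 90 windows each were tested for 5 replicative H3.1 genes, for 5 of 7 other H3 genes and for 5 genes of H3.3 deposition (*HIRA*, *UBN1*, *UBN2*, *CABIN1* and *ATRX*). Limma called 0 in each list, with 5, 3 and 1 windows under 0.05 before adjustment. The read number of the H3.1 promoters had a median of -0.31 (-0.37 to -0.10), against -0.18 over all promoters, and that of the deposition genes -0.12. In the 5′ parts the medians were 0.02 for H3.1 genes and 0.13 for deposition genes, against 0.05 for all genes. None of the 3 lists had a promoter as far from the median as the *HTR5* promoter at 0.56.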

How the data were processed

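Per the methods, the authors used Bowtie and TAIR10 for mapping, allowing up to 2 mismatches, and deposited for each library the positions of uniquely mapped reads with reads at the same coordinates removed; these positions (unit: other) are not normalized. Of the 20 lists 4, replicate 2 of H3K4me3 and H2A.Z in both genotypes, have no strand, no organelle reads and up to 2 reads per position.

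Reads, taken as 50 bp, were counted by their leftmost base into the windows on TAIR10.1 and scaled to 1000000 reads per library. Values are log2 with a pseudocount of 0.1, which makes changes of sparse windows look smaller; windows with a mean under 10 reads were left out. Each mark was divided by H3 of like genotype and replicate number. Limma 3.58.1 in R 4.3.3 (trend, Benjamini-Hochberg over each part) was fitted across all windows, with the antibody as covariate for the read number, and exact permutation tests were run on single windows in Python 3.11.15 with numpy 2.4.6, pandas 2.3.3 and scipy 1.17.1. The fits were tested on simulated data. Nothing in the labels says that replicates came from separate cultures, so p-values cover the spread between these libraries.

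Members and lists were chosen with earlier results of these data known. Named were the members, AT4G23713, the 3 nearest genes of each member by WT pattern, and the 5 called tiles with the largest rise and fall among those with a mean of at least 50 reads. Alternatives were another pseudocount (0.5), no filter, other library sizes, limma-voom, a replicate block, the mean over antibodies, promoters of 1000 bp, other H3 denominators, a correction for duplicate removal, reads at their middle, the runs left out and each replicate left out. *HTR7* (a pseudogene in the annotation) and *HTR15* (under 500 bp) were not counted.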

Additional observations from a re-analysis of the deposited data

How the results depend on the processing

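Of 144 other values of the read number 120 kept direction and side of the threshold. The *HTR4* promoter, at -0.01, turned to 0.16 with median ratio scaling, 0.18 with limma-voom, 0.049 with promoters of 1000 bp, 0.023 with the correction for duplicate removal and 0.00087 with reads at their middle. The *HTR5* promoter passed the threshold at 0.74 with median ratio scaling (adjusted p = 0.0237), 0.60 with limma-voom and 0.69 with promoters of 1000 bp, and the correction for duplicate removal moved it to 0.67. Of the member windows called over H3, the pooled H3 denominator gave 1 for H3K4me3 and 1 for H3K36me3, and H3 replicate 1 as denominator gave 2 for H3K36me3. The share of all windows called under these settings is not given here, so these counts have no background. Their cause was not tested. Of the 36 values of a mark over H3, 16 kept their sign in all 17 settings (6 of H2A.Z, 6 of H3K36me3, 2 each of H3K4me3 and H1).

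Leaving out the libraries of 1 genotype and replicate number moved the *HTR4* promoter between -0.48 and 0.46, its 5′ part between -0.68 and 0.011 and its 3′ part between -0.85 and -0.10. *HTR5* ranged from 0.29 to 0.84 in the promoter, 0.058 to 1.07 in the 5′ part and -0.36 to 0.53 in the 3′ part, and *HTR8* from -0.56 to 0.060, -0.71 to -0.17 and -0.52 to 0.12. Without WT replicate 1 the promoters of *HTR4* and *HTR8* and the 5′ parts of both passed the threshold as lower, and without WT replicate 2 the promoter and 5′ part of *HTR5* as higher. The counts of called windows ranged from 0 to 1 for H3K4me3, 0 to 4 for H2A.Z and 0 to 4 for H3, and stayed at 0 for H3K36me3 and H1. The calls of the read number thus changed with the WT replicate left out. Leaving out a WT replicate moves the WT mean and also takes out the spread between WT replicates, and these were not separated.

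The labels share only a replicate number. Deviations of same-numbered libraries correlated at 0.721 to 0.823 for H3K4me3, 0.59 to 0.63 for H2A.Z and 0.357 to 0.411 for H1. They correlated at -0.106 to 0.133 for H3K36me3 and -0.247 to -0.048 for H3. For H3K4me3 and H2A.Z, the lists without strand share a replicate number in both genotypes and hold more reads than the other lists of these antibodies. For H3K4me3 and H2A.Z, list format and read depth were therefore not separated from replicate number. No list of H1, H3K36me3 or H3 lacks strand. With the replicate block the *HTR5* promoter kept its value of 0.56 and passed the threshold (adjusted p = 0.0021). Crossed numbers for H3, added after seeing the data, gave 0, 22 and 23 called windows of all genes in the 3 parts.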
